A study of Xenopus laevis with 28 samples.

Results

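Apolipoproteins and fibrinogen chains are secreted plasma proteins. The rule for this set took every gene model whose name, without its copy suffix, is apoa1, apoa2, apoa4, apob, apoc1, apoe, fga, fgb or fgg. It found 12 models among 45831 in the deposited table: apoa1, apob, apoe, fga, fgb and fgg, each with 1 L and 1 S copy. The other 3 names matched no row. L and S mark the long and short subgenomes of *Xenopus laevis*, an allotetraploid frog, and paired copies of a gene are homeologs.

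Lipoprotein particles carry cholesterol and triglyceride in blood and are held together by apolipoproteins. apoa1 is the main protein of high-density lipoprotein, apob is the scaffold of very-low-density and low-density lipoprotein, and apoe is a ligand of the LDL receptor family. Fibrinogen is built from alpha, beta and gamma chains encoded by fga, fgb and fgg, and thrombin turns it into the fibrin mesh of a clot. In vertebrates the liver makes most of these proteins, apob is also made by the intestine, and apoe is expressed in many tissues, macrophages and glia among them.

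The series measured polyA RNA from whole oocytes, unfertilized eggs and whole embryos of the J strain, with no treatment and an RNA-seq protocol that does not keep strand. Of its 28 libraries, 23 entered the tests: unfertilized eggs and Nieuwkoop-Faber stages 8, 9, 10.5, 12, 15, 20, 25, 30, 35 and 40, from stage 8 (blastula) through stage 12 (gastrula), stage 20 (neurula) and stages 25 to 35 (tailbud) to stage 40 (tadpole). One library per stage came from the collection labelled Taira and 1 from the collection labelled Ueno, except at stage 40. A second Ueno collection, which the labels give the same clutch name but a different title, added another library at stages 8 and 35. Oocyte classes 1-2, 3-4 and 5-6 (Ueno) and a stage 10 library of the second collection have 1 library each and were described only. Values are TPM, a transcript abundance per length scaled to the same total in every library, so levels can be compared between genes. TPM keeps no read counts, and the depth is unknown. In bulk RNA from whole embryos, fewer cells of a type and less RNA per cell cannot be told apart.

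The library labelled stage 40 Ueno was left out because its profile is that of an egg. Its closest library by Spearman correlation was the Ueno egg (rho 0.964). The summed TPM of 12 egg-marker models was 4970 in it, against 8.37 in the stage 40 Taira library, and that of 8 skeletal muscle models was 1.95, against 14331. The 12 models of the set summed to 0.34 TPM in it, against 8908 TPM in stage 40 Taira, so stage 40 rests on 1 library.

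These genes were close to silent in oocytes, eggs and early embryos. Over the 11 libraries from egg to stage 12, 89 of 132 values were listed at 0 and 3 reached 1 TPM, the highest being 1.45 TPM for apoe.S in stage 12 Taira. In the 3 oocyte libraries no value reached 1 TPM, and the highest was 0.98 TPM for apoa1.S in oocyte class 5-6. In the stage 10 library of the second Ueno collection the highest was 0.58 TPM, for apoe.S. With limma (adjusted p under 0.05, Benjamini-Hochberg over all 28223 models tested), 0 of the 11 models tested were called from egg to stage 9 or from stage 9 to stage 12, and 0 had an unadjusted p under 0.05. Over all models, 37.8% were called higher and 4.75% lower at stage 9 than in eggs, and 13.5% higher and 36.2% lower at stage 12 than at stage 9. These directions depended on the scaling: after median-of-ratios scaling 16.8% were higher and 22% lower at stage 9 than in eggs, and 23.7% higher and 19.7% lower at stage 12 than at stage 9. Quantile normalization gave 15.7% higher and 16.2% lower at stage 9, and 19.7% higher and 24.4% lower at stage 12.

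**Figure D1:**
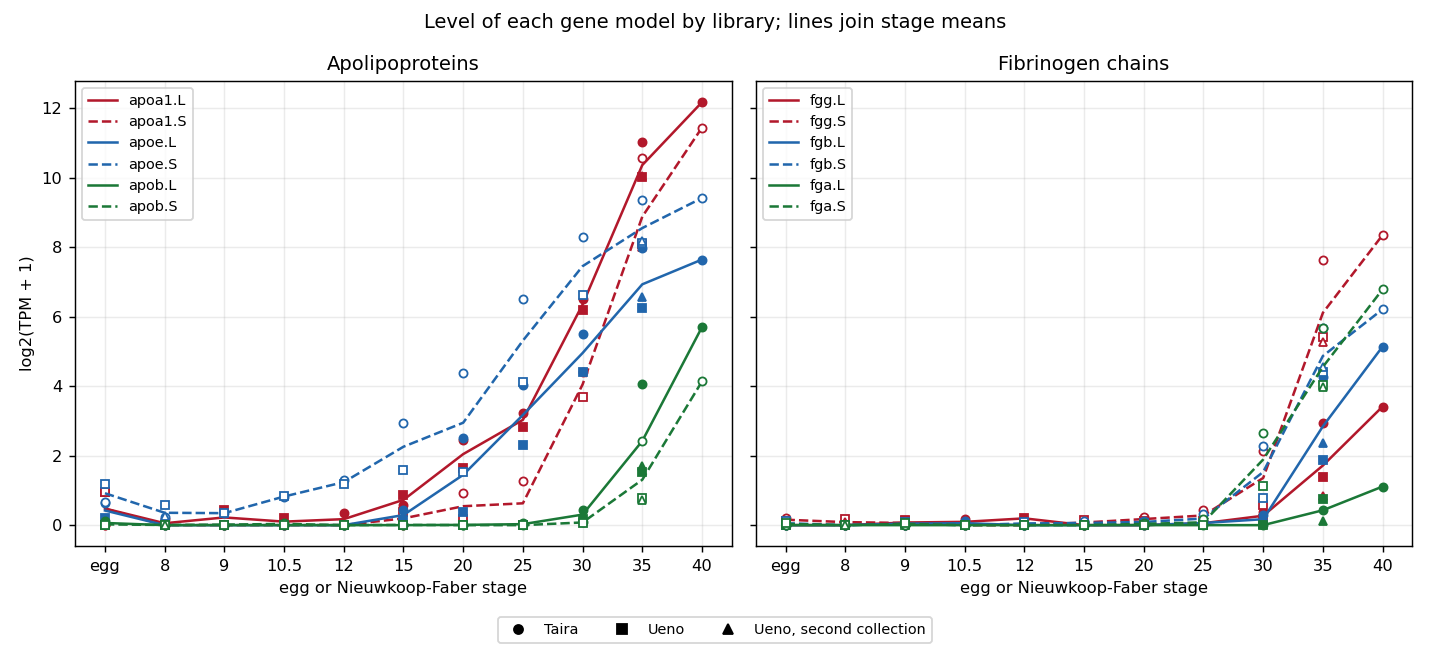
Level of each model as log2(TPM + 1) in eggs and at 10 Nieuwkoop-Faber stages, apolipoproteins on the left and fibrinogen chains on the right. Each point is 1 library (filled for L copies, open for S copies; circles Taira, squares Ueno, triangles the second Ueno collection), and lines join stage means. apoe.S leaves the baseline first in Taira, while in Ueno it stays at or below 2.00 TPM up to stage 20. apoa1 has the highest levels at stage 40 Taira (4624 TPM for apoa1.L). The fibrinogen chains and apob reach 1 TPM in every library only at stages 30 to 40.

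The genes started in sequence. Onset was read as the first stage from which every library is at 1 TPM or above in all later stages. By that measure apoe.S started at stage 12, apoa1.L at stage 20, apoe.L at stage 25, apoa1.S and fga.S at stage 30, apob.L, fgb.L, fgb.S and fgg.S at stage 35, and apob.S, fga.L and fgg.L at stage 40. In Ueno, apoe.S already had 1.26 TPM in the egg, then 0.27 at stage 9 and 1.27 at stage 12. It was not called from stage 9 to stage 12 (limma adjusted p = 0.316), so its onset at stage 12 is a threshold reading only. In Taira alone apoe.L came at stage 20, apoa1.S at stage 25, fgb.S and fgg.S at stage 30 and apob.S and fgg.L at stage 35, each earlier than over all libraries. In Ueno alone no model started earlier than over all libraries other than fgg.L, at stage 35.

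apoe.S (Xelaev18037761m) was the first model to stay at 1 TPM or above in every library, but only Taira had it well above that level by stage 20. At stage 15 it stood at 6.62 TPM in Taira and 2.00 in Ueno. By stage 20 Taira had 19.8 TPM and Ueno 1.86, below the 2.14 TPM of apoa1.L in the same Ueno library. Stage 25 gave 90.0 TPM in Taira and 16.3 in Ueno, and stage 30 gave 312 and 97.1 TPM in that order of collections. At stage 35 apoe.S was at 653 in Taira, 277 in Ueno and 289 in the second Ueno collection, and stage 40 Taira had 682. Both clutches had it over 10 TPM at stage 25, and the Taira value was the higher at each of the 5 stages from 15 to 35. Its homeolog apoe.L (Xelaev18036024m) was listed at 0 in both stage 12 libraries. By stage 20 it had reached 4.68 TPM in Taira and 0.31 in Ueno, by stage 25 Taira had 15.5 and Ueno 3.92, and by stage 30 Taira had 44.6 and Ueno 20.1. It then stood at 252, 75.4 and 93.3 TPM in the Taira, Ueno and second Ueno libraries of stage 35, and stage 40 Taira had 199.

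apoa1.L (Xelaev18035462m) reached the highest level of the set. By stage 20 it had 4.42 TPM in Taira and 2.14 in Ueno, by stage 25 Taira had 8.45 and Ueno 6.07, and by stage 30 Taira had 90.6 and Ueno 71.9. At stage 35 it was at 2088 in Taira, 1040 in Ueno and 1053 in the second Ueno collection, and stage 40 Taira had 4624 TPM, where it ranked 17 among all models by TPM. apoa1.S (Xelaev18037384m) had 1.39 TPM in Taira at stage 25, where Ueno was listed at 0, and reached 20.1 in Taira and 12.0 in Ueno by stage 30. It then stood at 1509, 270 and 255 in the 3 libraries of stage 35, in the order Taira, Ueno and second Ueno, and stage 40 Taira had 2782, rank 49. Together the apoa1 copies made up 0.741% of the summed TPM of the stage 40 Taira library and 0.360%, 0.131% and 0.131% in the Taira, Ueno and second Ueno libraries of stage 35.

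apob came later and stayed lower. apob.L (Xelaev18028109m) had 0.36 TPM in Taira and 0.12 in Ueno by stage 30. The libraries of stage 35 had 15.6 (Taira), 1.86 (Ueno) and 2.24 (second Ueno), and stage 40 Taira had 51.0. apob.S (Xelaev18030121m) had 0.06 and 0.05 TPM by stage 30, the 3 libraries of stage 35 gave 4.31, 0.72 and 0.66, and stage 40 Taira gave 16.6. In both copies the Taira library of stage 35 lay well above both Ueno libraries, which lay close to each other.

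Among fibrinogen chains the S copies carried most of the signal, and nearly all of it for fga and fgg at stages 35 and 40. fgg.S (Xelaev18009208m), a gamma chain, had 3.38 TPM in Taira and 0.50 in Ueno by stage 30. Stage 35 gave 198 in Taira, 41.6 in Ueno and 38.0 in the second Ueno collection, and stage 40 Taira had 325. fga.S (Xelaev18009209m), an alpha chain, had 5.24 TPM in Taira and 1.2 in Ueno by stage 30, then 49.7, 15.4 and 14.7 in the same order of stage 35 libraries, and 109 in stage 40 Taira. fgb.S (Xelaev18009211m), a beta chain, had 3.85 TPM in Taira and 0.72 in Ueno by stage 30, then 49.97, 20.1 and 22.2 in the stage 35 libraries, and 73.2 in stage 40 Taira.

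At stage 25 none of these 3 S copies exceeded 0.35 TPM, the level of fgg.S in Taira. The L copies followed at lower levels. fgb.L (Xelaev18005467m) had 0.23 TPM in Taira and 0.03 in Ueno by stage 30, then 18.2, 2.70 and 4.20 in the stage 35 libraries and 34.3 in stage 40 Taira. fgg.L (Xelaev18005465m) had 0.30 in Taira and 0.12 in Ueno by stage 30, then 6.63, 1.60 and 0.79 in the stage 35 libraries and 9.66 in stage 40 Taira. fga.L (Xelaev18005466m) was listed at 0 in both stage 30 libraries, had 0.34, 0.67 and 0.09 TPM in those of stage 35 and 1.16 in stage 40 Taira. It was the only model of the set that was not tested, since the filter asked for 1 TPM or more in 2 or more of the 23 libraries.

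Differences between stages were tested on log2(TPM + 1) with stage and collection as terms, and ± after a log2 difference gives its standard error from limma. TPM means are given ± SD. A difference on this scale understates the fold of a model with low TPM. Each model has 1 estimate of its spread, shared by all stages. Where most stages lie near 0, these lower the estimate, so standard errors and p-values of late contrasts can understate the late spread. apob.L, for example, was listed at 0 in all libraries of stages 8 to 15, against 15.6, 1.86 and 2.24 TPM at stage 35. Apart from apoe.S, the tested models reached 1 TPM only from stage 20 on (apoa1.L and apoe.L), from stage 25 on (apoa1.S) or from stage 30 or 35 on (apob and the fibrinogen chains). They passed the filter through those stages alone, so that a higher level late than early follows from the filter for them, and their calls and the counts over the 11 tested models are given as description. Over all 11 stages, 11 of 11 tested models differed (F-test), as did 93% of all models.

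From stage 12 to stage 20, which spans neurulation, 2 of 11 models were called higher and 0 lower, against 19.5% higher and 18.9% lower among all models. apoa1.L averaged 3.28 ± 1.61 TPM at stage 20, against 0.135 ± 0.191 at stage 12 (n = 2 each), a log2 difference of 1.87 ± 0.39 (limma adjusted p = 0.0016, and 0.054 with a pseudocount of 5). apoe.L was called as well (adjusted p = 0.0368), with 4.68 TPM in Taira and 0.31 in Ueno at stage 20 against 0 in both stage 12 libraries. Its call rests on Taira: without the stage 20 Taira library the adjusted p was 0.402, without that of stage 12 Taira 0.255, and without the collection term 0.134. apoe.S had 19.8 and 1.86 TPM at stage 20, against 1.45 and 1.27 at stage 12, and was not called (adjusted p = 0.0609).

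From stage 20 to stage 25 limma called 0 of 11 models, where an unadjusted p under 0.05 would have given 3 higher and 0 lower, while 0.471% of all models were called higher and 0.0921% lower (0.514% and 0.23% after quantile normalization). apoe.S was higher at stage 25 than at stage 20 in both clutches, with 90.0 against 19.8 TPM in Taira and 16.3 against 1.86 in Ueno, a log2 difference of 2.36 ± 0.69 that did not pass (adjusted p = 0.205). Quantile normalization called 1 model in this interval.

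From stage 25 to stage 30 both apoa1 copies and fga.S were called higher, 3 of 11 models. Among all models 1.95% were called higher and 1.43% lower (4.06% and 1.77% after median-of-ratios scaling). apoa1.L averaged 81.2 ± 13.2 TPM at stage 30, against 7.26 ± 1.68 at stage 25 (n = 2 each), a log2 difference of 3.32 ± 0.39 (limma adjusted p = 0.00015, and 0.0981 with a pseudocount of 0.1). apoa1.S averaged 16.1 ± 5.78 at stage 30, against 0.695 ± 0.983 at stage 25 (3.42 ± 0.60, adjusted p = 0.00435). fga.S averaged 3.22 ± 2.86 at stage 30, against 0.06 ± 0.0849 at stage 25 (1.81 ± 0.43, adjusted p = 0.0304). Without stage 30 Taira apoa1.L was the 1 model still called (adjusted p 0.0574 for apoa1.S and 0.292 for fga.S). fga.S also lost its call without either stage 25 library (0.203 without Taira, 0.0733 without Ueno) and without the collection term (0.0753), and median-of-ratios scaling called 6 models. The apoe copies had log2 differences of 1.78 ± 0.51 (L) and 2.14 ± 0.69 (S) and were not called (adjusted p = 0.0743 and 0.106).

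From stage 30 to stage 35, 10 of 11 tested models, all but apoe.S, were called higher and 0 lower. Among all models 2.07% were called higher and 1.22% lower (3.71% and 1.26% after median-of-ratios scaling). apoa1.S averaged 678 ± 720 TPM at stage 35 (n = 3), against 16.1 ± 5.78 at stage 30 (n = 2), a log2 difference of 5.05 ± 0.57 (limma adjusted p = 7.91e-05). apoa1.L averaged 1394 ± 601 at stage 35, against 81.2 ± 13.2 at stage 30 (4.11 ± 0.37, adjusted p = 1.18e-05). The gamma chain fgg.S averaged 92.6 ± 91.4 at stage 35, against 1.94 ± 2.04 at stage 30 (4.96 ± 0.50, adjusted p = 2.56e-05). The beta chain fgb.S averaged 30.8 ± 16.7 at stage 35, against 2.29 ± 2.21 at stage 30 (3.42 ± 0.36, adjusted p = 4.6e-05).

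In 10 of the 11 tested models, all but apoe.S, every stage 35 library lay above both stage 30 libraries, as it did in 6.24% of all models. The other 6 called models (fga.S, fgb.L, fgg.L, apob.L, apob.S and apoe.L) had log2 differences of 1.37 to 2.81 and adjusted p of 0.000782 to 0.0367. Among them apob.L, apob.S, apoe.L and fgg.L were not called when either stage 30 library was left out, which gave 6 calls each time. apoe.L was also not called without stage 35 Taira (adjusted p = 0.1002), nor apob.S without stage 8 Ueno or any single library of stages 9, 10.5 and 12 (0.0504 to 0.0513). apoe.L, apob.S and fgg.L also lost their calls without the collection term (adjusted p = 0.145, 0.0817 and 0.0666). A pseudocount of 5 ended the calls of apob.L (0.0635), apob.S (0.097) and fgg.L (0.0508), a pseudocount of 0.1 that of apoe.L (0.182), and no filter those of apob.S (0.0546) and apoe.L (0.0662). All 12 models were higher at stage 35 than at stage 30 in Taira and likewise in Ueno. The share of all models with that order in both is not given here, so this count is no result about these genes. apoe.S averaged 406 ± 213 TPM at stage 35, against 205 ± 152 at stage 30, and did not pass (1.21 ± 0.66, adjusted p = 0.408).

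**Figure D2:**
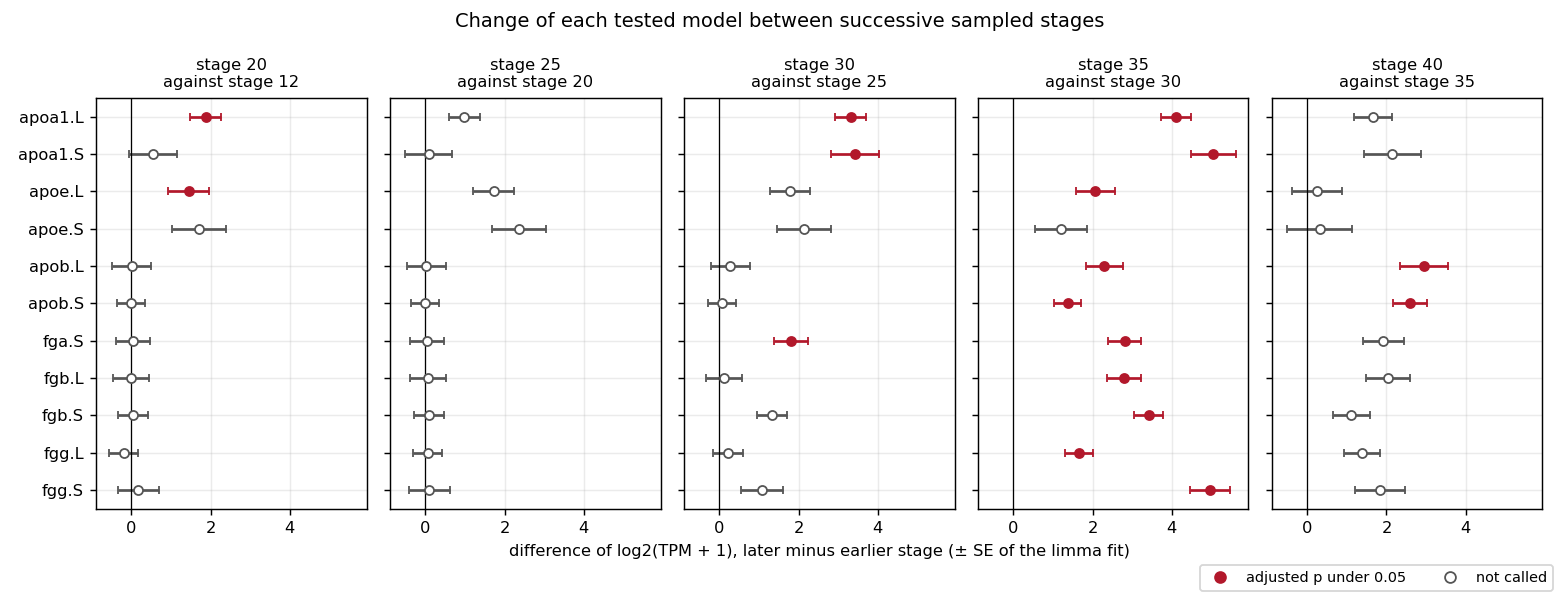
Difference of log2(TPM + 1), later minus earlier stage, for the 11 tested models in 5 intervals. Points are limma estimates with their standard errors, filled red where the adjusted p is under 0.05 and open where it is not. The calls gather at stage 35 against stage 30 (10 models), while apoe.S has its larger differences before that.

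From stage 35 to stage 40 the fit called both apob copies higher and 0 models lower, against 0.521% of all models higher and 0.0638% lower. The fit has 1 library at stage 40, from Taira, and assumes that it varies as the other stages do. It also takes the log2 difference between collections as the same at every stage. For apob.L that term was 0.30 ± 0.22 (Taira minus Ueno), while stage 35 had 15.6 TPM in Taira and 1.86 in Ueno. The estimates for stage 40 can therefore hold part of the difference between collections. The estimates were 2.95 ± 0.60 for apob.L (limma adjusted p = 0.0356) and 2.60 ± 0.43 for apob.S (adjusted p = 0.00724), larger than the differences within Taira. Within Taira apob.L had 51.0 TPM at stage 40, against 15.6 at stage 35, a log2 difference of 1.64, and apob.S had 16.6, against 4.31 (1.73). The call of apob.L was lost in 25 of 33 alternatives, among them the omission of any single library other than stage 35 Taira, with adjusted p of 1.43e-06 to 0.923 over all 33. That of apob.S was lost in 2 of 31, a pseudocount of 0.1 (0.555) and the library labelled stage 40 Ueno put back (0.605), over a range of 1e-04 to 0.605.

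The ratio of stage 40 to stage 35 TPM within Taira was 3.26 for apob.L and 3.85 for apob.S. It was 2.21 for apoa1.L, 1.84 for apoa1.S, 2.20 for fga.S, 1.64 for fgg.S, 1.47 for fgb.S, 1.88 for fgb.L and 1.46 for fgg.L, while fga.L had 1.16 TPM at stage 40 and 0.34 at stage 35. It was 1.05 for apoe.S and 0.791 for apoe.L, the one model of the set with a lower level at stage 40 than at stage 35. These ratios compare 2 libraries and have no replicate check.

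Set against stage 20, stage 35 was higher in 11 of 11 tested models (limma adjusted p of 6.79e-10 to 0.00383), beside 13.9% of all models higher and 24.1% lower (20.5% and 20.2% after median-of-ratios scaling, and 20% and 21.8% after quantile normalization). apoa1.L had 2088, 1040 and 1053 TPM at stage 35, against 4.42 and 2.14 at stage 20 (log2 difference 8.41 ± 0.37). apoe.S had 653, 277 and 289 TPM at stage 35, against 19.8 and 1.86 at stage 20 (5.72 ± 0.66). apob.S, fgb.L and fgg.L were listed at 0 in both stage 20 libraries. The median of all models was -0.29 on the log2 scale in this contrast, and -0.09 after median-of-ratios scaling and -0.08 after quantile normalization.

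Levels differed between collections, mainly between Taira and Ueno. At stage 35 the Taira library was above both Ueno libraries in 11 of 12 models, fga.L being the exception. The share of all models with this order is not given here. Averaged over stages, 46.3% of all models were called higher in Taira than in Ueno and 6.81% lower, so this count is no result about these genes. The ratio of Taira to Ueno at stage 35 ran from 2.01 for apoa1.L to 8.41 for apob.L among the models with at least 1 TPM in Ueno. The ratio of the first to the second Ueno collection at stage 35 lay between 0.643 (fgb.L) and 2.03 (fgg.L) over the same models and apob.S. It was 0.988 for apoa1.L, 1.06 for apoa1.S, 0.958 for apoe.S and 1.10 for fgg.S.

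Averaged over stages, the collection term (Taira minus first Ueno collection) was called for 2 of 11 tested models. These were apoe.L (0.74 ± 0.23, limma adjusted p = 0.0141) and apoe.S (0.88 ± 0.31, adjusted p = 0.026). The term averages over stages where most models of the set were near 0. It was not called for apob.L (0.30 ± 0.22, adjusted p = 0.265), whose ratio of Taira to Ueno at stage 35 was 8.41. That ratio was 3.34 for apoe.L and 2.35 for apoe.S. Among all models 46.3% were called higher and 6.81% lower in Taira than in Ueno, with a median of 0.34. After median-of-ratios scaling 24.5% of all models were higher and 16.7% lower, and after quantile normalization 19.3% and 18.5%, so the set's share of calls is no result about these genes. apoe.S was not called after median-of-ratios scaling (adjusted p = 0.119), after quantile normalization (0.139) or when the Taira or the Ueno library of stage 15, 20, 25 or 30 or the Taira library of stage 35 was left out, with adjusted p of 0.0124 to 0.139 over 33 alternatives. This comparison was added after seeing the values. The largest ratio of Taira to Ueno for apoe.S was at stage 20 (10.7), and it was 3.31 at stage 15, 5.51 at stage 25, 3.22 at stage 30 and 2.35 at stage 35.

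The copies of each gene differed. Averaged over stages 30, 35 and 40, the L copy exceeded the S copy for apoa1 (log2 ratio 1.64 ± 0.18, limma adjusted p = 1.06e-06) and apob (0.92 ± 0.12, adjusted p = 3.44e-06). The S copy exceeded the L copy for apoe (-1.93 ± 0.19, adjusted p = 2.29e-07), fga (-3.79 ± 0.22, adjusted p = 4.69e-10), fgb (-1.51 ± 0.17, adjusted p = 1.41e-06) and fgg (-3.45 ± 0.15, adjusted p = 2.2e-11). These are 6 of 6 pairs, while among 6654 pairs 43.9% were called with L higher and 26.5% with S higher. The 6 calls held in all 31 alternatives of this fit. Reads shared by near-identical copies were divided by the authors' estimation, so each copy's level is uncertain to that extent.

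Shares of the L copy at stage 35 put this on a plain scale (n = 3 libraries each). The L copy made up 75.9% ± 3.36 of apob and 72.7% ± 12.7 of apoa1, but 24.5% ± 3.22 of apoe, 18.2% ± 7.70 of fgb, 2.99% ± 0.859 of fgg and 1.82% ± 2.04 of fga. For apoa1 the libraries disagreed: the L share was 58.0% in Taira, 79.4% in Ueno and 80.5% in the second Ueno collection, after 81.8% and 85.7% at stage 30. For fgb the L share was 26.8% in Taira, against 11.9% and 15.9% in the Ueno collections, and 31.9% at stage 40 Taira. The ratio of L to S differed among stages in 6 of 6 pairs (F-test), as in 88.1% of all pairs. With 1 added to each TPM, the log2 ratio stays near 0 in early stages, where both copies were near 0. A difference among stages then follows from the start of unequal copies and does not show a shift between them. The apob pair was called too, with L shares of 78.4%, 72.1% and 77.2% at stage 35 and 75.5% at stage 40 Taira.

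**Figure D3:**
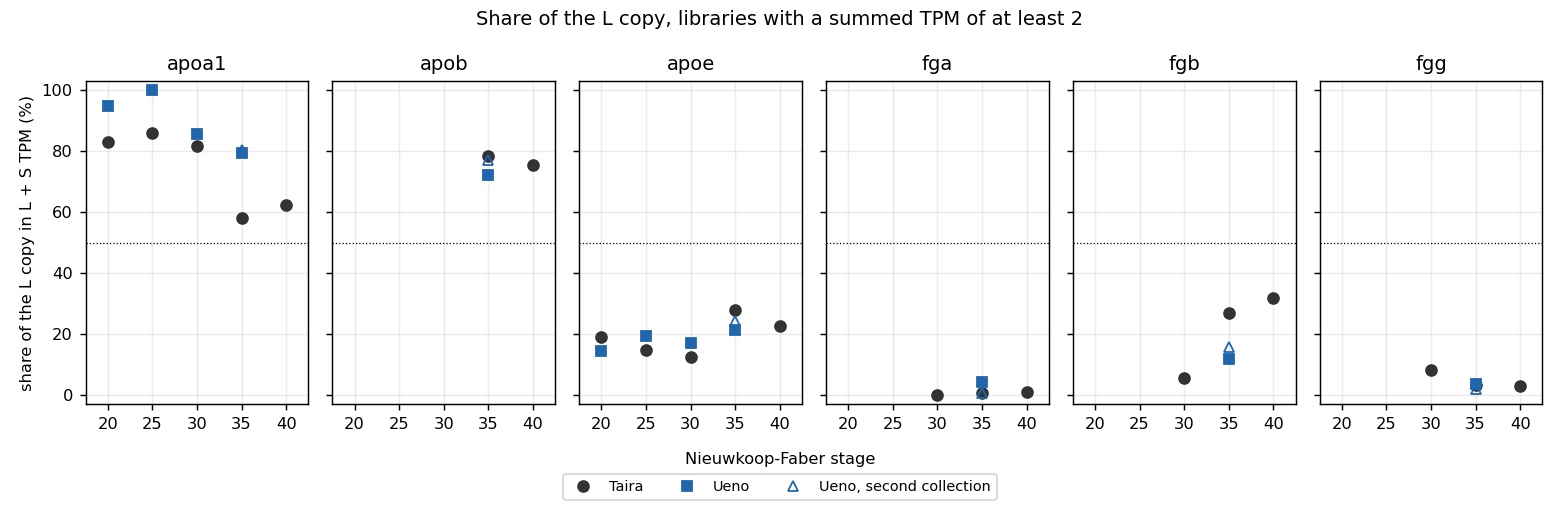
Share of the L copy in the summed TPM of L and S, by stage, for each of the 6 genes, in libraries where the sum is at least 2 TPM. Each point is 1 library (circles Taira, squares Ueno, open triangles the second Ueno collection), and the dotted line marks equal copies. apoa1 and apob lie above the line and the other 4 genes below it, with fga and fgg near 0 at stage 35.

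In RefSeq's annotation of the Xenopus_laevis_v10.1 assembly, to which all 12 names matched by symbol, fgg, fga and fgb lie side by side in that order in each subgenome, and apoe.L lies beside apoc1.L. Only gene order was taken from it, since the gene models belong to another set. Model numbers in the deposited table run the same way, with fgg.L, fga.L and fgb.L carrying consecutive numbers. The S copies of these neighbours moved together across the 23 libraries: Pearson r of log2(TPM + 1) was 0.995 between fgb.S and fgg.S, 0.994 between fga.S and fgb.S and 0.990 between fga.S and fgg.S. Such values were not particular to neighbours. apoa1.S, which does not lie beside them, had 0.990 with fga.S, 0.990 with fgb.S and 0.982 with fgg.S. Among L copies, fgb.L had 0.989 with apob.L and 0.982 with fgg.L. All libraries from egg to stage 25 contribute values near 0 to these correlations, which are descriptions.

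The proportions of the 3 chains, whose products join in equal numbers, were not equal and differed between stages. At stage 30 fga was the most abundant chain with 40.3% of the summed TPM in Taira and 46.7% in Ueno, while fgg had 28.3% and 24.1%. At stage 35 fgg had 54.9% ± 7.69, fgb 27.3% ± 5.98 and fga 17.8% ± 2.10 (n = 3). The fgg share was 63.4%, 52.7% and 48.5% in the 3 libraries of stage 35, all above both stage 30 libraries, and 60.6% at stage 40 Taira. The sums behind these shares were 13 TPM in Taira and 2.57 in Ueno at stage 30, 323, 82.0 and 80.0 in the libraries of stage 35, and 553 at stage 40 Taira, so the stage 30 Ueno shares rest on low values. No test was run on the shares.

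**Figure D4:**
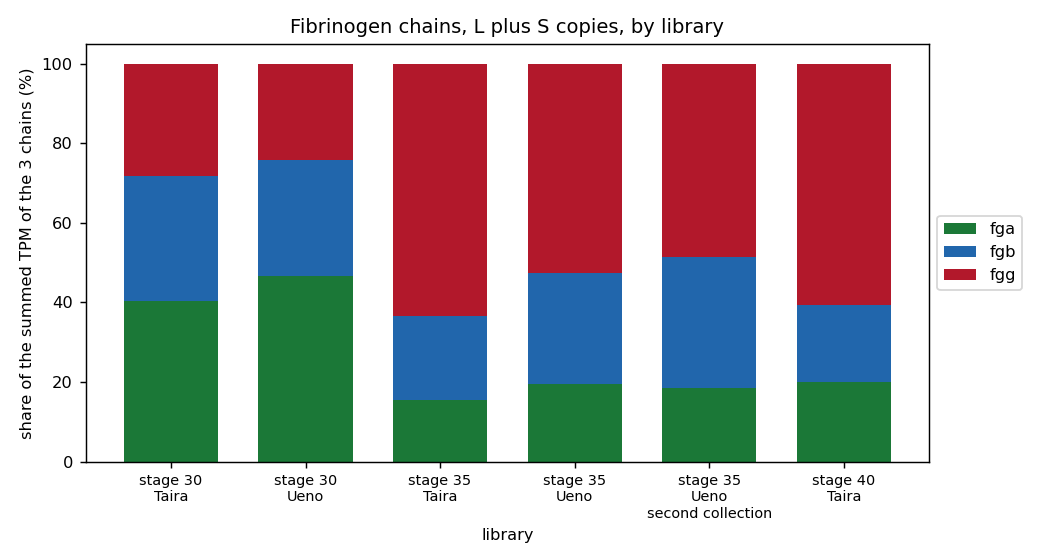
Share of fga, fgb and fgg, L plus S copies, in the summed TPM of the 3 chains, for each library with a sum of at least 1 TPM. Bars are single libraries in order of stage. fgg is the smallest part in both stage 30 libraries and the largest in the 4 libraries of stages 35 and 40.

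apoc1-like.L (Xelaev18036025m), a model outside the rule whose name points to apolipoprotein C1, was looked at after its values were seen, since its number follows that of apoe.L. It was at 24.5 TPM in Taira and 22.3 in Ueno at stage 12, against 0.33 and 0.16 at stage 9, a log2 difference of 4.29 ± 0.40 (limma adjusted p = 5.45e-07). It stood at 280 and 131 at stage 20, when apoe.L was at 4.68 and 0.31, and at 1582, 458 and 447 at stage 35. The model numbered next to apoa1.S (Xelaev18037383m), which has no gene symbol in the table, was also chosen after its values were seen. It was at 1022, 374 and 365 TPM at stage 35. Its Pearson r with apoa1.S was 0.998 over 23 libraries, a description, since the choice and the early values near 0 favour a high r. In the RefSeq annotation apoa4.S lies beside apoa1.S, but whether this model is apoa4.S was not tested.

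Named genes of like pattern were the 3 with the largest Pearson r of log2(TPM + 1) over the 23 libraries, among 11465 models with a symbol and a highest TPM of at least 10. For apob.L they were the fatty acid receptor ffar4.S (0.995), the alcohol dehydrogenase adh1b.S (0.988) and the fatty acid binding protein fabp1.S (0.987), and for apob.S adh1b.S (0.990), slc51b-like.L (0.983) and tm4sf4.L (0.982). For fgg.S they were rcvrn.2.S (0.996), the intestinal fatty acid binding protein fabp2.L (0.996) and vitronectin vtn.L (0.992), another plasma protein. For apoa1.S they were the lens crystallin cryba4.S (0.993), the plasma protein fetub.L (0.993) and c2orf40.L (0.990), and for apoa1.L the collagen col3a1.S (0.993), hmp19.L (0.990) and ifitm3.L (0.989). For apoe.L they were fabp7.L (0.994), a fatty acid binding protein of glia, mmp19-like.2.L (0.993) and the muscle gene myoz1.S (0.991), and for apoe.S anxa6.L (0.991), slurp1l.S (0.991) and kcnk1.L (0.989).

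For fga.S the 3 were cryba4.S (0.990), the galectin lgals4.L (0.989) and vtn.L (0.987), and for fgb.S the scavenger receptor stab2.L (0.990), fabp2.L (0.989) and krt15-like.L (0.989). For fgb.L they were the lens channel mip.L (0.994), ffar4.S (0.992) and the corneal keratocan kera.L (0.989), and for fgg.L fabp1.S (0.986), ffar4.S (0.982) and the plasma carboxypeptidase cpb2.L (0.981). Genes known from liver, gut, lens and muscle appear together among these names, and the correlations share the 23 libraries of whole embryos.

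Most tested models of other liver plasma proteins were higher at stage 35 than at stage 20. Of 42 genes listed, 15 were in the table, in 24 models, of which 19 were tested. Models of this list and the later lists that reach 1 TPM only late pass the filter through those stages. A higher level late then follows from the filter for them, and the counts of these lists are given as description. From stage 20 to stage 35, 13 were called higher, 1 lower and 5 were not called, beside 13.9% of all models higher and 24.1% lower. The median log2 difference was 1.59, and -0.29 over all models. Those with the largest differences included the thyroid hormone carrier transthyretin: ttr.L (Xelaev18031959m) averaged 466 ± 528 TPM at stage 35, against 1.57 ± 0.820 at stage 20 (7.13 ± 0.60, limma adjusted p = 3.86e-07), and ttr.S (Xelaev18033680m) 1054 ± 485, against 6.43 ± 0.269 (7.11 ± 0.46, adjusted p = 2.83e-08). The fetuin fetub.L (Xelaev18027507m) averaged 280 ± 249, against 0.815 ± 0.530 (7.12 ± 0.57, adjusted p = 2.59e-07), and the vitamin D binding protein gc.S (Xelaev18009513m) 43.4 ± 30.8, against 0.355 ± 0.205 (4.91 ± 0.35, adjusted p = 6.86e-08).

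From stage 30 to stage 35, 5 of the 19 tested models were called higher and 0 lower, beside 2.07% and 1.22% of all models (median 0.68, and -0.19 for all models), and these were ttr.L, ttr.S, fetub.L, gc.S and vtn.L. From stage 20 to stage 35 the model called lower was the protease inhibitor a2m.S (-2.26 ± 0.32, adjusted p = 7.54e-05). After median-of-ratios scaling and after quantile normalization 15 were called higher and 1 lower from stage 20 to stage 35.

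Of 26 tested models of lipoprotein handling and other apolipoproteins, 10 were called higher and 2 lower from stage 20 to stage 35 (median 0.35), beside 13.9% and 24.1% of all models. The lipid transfer protein pltp.L (Xelaev18043873m) averaged 18.6 ± 7.70 TPM at stage 35, against 0.910 ± 0.184 at stage 20 (3.37 ± 0.29, limma adjusted p = 6e-07). The cholesterol acyltransferase lcat.L (Xelaev18022873m), which apoa1 activates, averaged 13.6 ± 8.25, against 0.980 ± 0.891 (2.87 ± 0.33, adjusted p = 9.41e-06). soat2.S (Xelaev18016066m), which makes cholesteryl ester inside cells, averaged 16.4 ± 9.43, against 1.09 ± 0.212 (2.88 ± 0.38, adjusted p = 4.15e-05).

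apoo.L (Xelaev18011836m), a mitochondrial inner membrane protein despite its name, averaged 82.5 ± 18.8, against 8.16 ± 1.30 (3.23 ± 0.47, adjusted p = 9.22e-05). Lower were dgat2.L (-1.36 ± 0.29) and the endocytic receptor lrp2.L (-1.19 ± 0.38), and both scalings gave 12 higher and 2 lower.

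In the coagulation list 7 of 20 tested models were called higher and 3 lower from stage 20 to stage 35 (median 0.62), beside 13.9% and 24.1% of all models. Prothrombin, the precursor of the enzyme that cleaves fibrinogen, was higher: f2.L (Xelaev18021869m) averaged 58.6 ± 4.33 TPM at stage 35, against 4.29 ± 1.69 at stage 20 (3.48 ± 0.32, limma adjusted p = 1.17e-06), and f2.S (Xelaev18024485m) 8.94 ± 5.26, against 0.755 ± 0.219 (2.21 ± 0.38, adjusted p = 0.000374). Fibronectin, a matrix protein of many embryonic tissues, was lower, with fn1.L (Xelaev18044847m) at 19.6 ± 5.44, against 119 ± 30.7 (-2.58 ± 0.34, adjusted p = 3.37e-05), and fn1.S (Xelaev18047294m) at 49.4 ± 23.7, against 183 ± 21.0 (-1.90 ± 0.39, adjusted p = 0.00164). After median-of-ratios scaling and after quantile normalization 11 were called higher and 3 lower.

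Of 34 tested models of liver and endoderm regulators, 2 were called higher and 14 lower from stage 20 to stage 35 (median -0.85). Among all models, too, more were lower (24.1%) than higher (13.9%) in this contrast. That excess depended on the scaling, with 20.2% lower and 20.5% higher after median-of-ratios scaling and 21.8% and 20% after quantile normalization. The endoderm factor sox17a.L (Suzuki00044) averaged 7.85 ± 2.77 TPM at stage 35, against 96.7 ± 15.5 at stage 20 (-3.51 ± 0.48, limma adjusted p = 5.69e-05), and sox17a.S (Xelaev18033724m) 12.6 ± 4.68, against 117 ± 17.9 (-3.09 ± 0.45, adjusted p = 0.000102). gata6.L (Xelaev18031904m) averaged 3.66 ± 0.952, against 27.0 ± 3.28 (-2.55 ± 0.33, adjusted p = 2.91e-05). The 2 called higher were hnf4b.S (0.78 ± 0.25) and nr1h5.L (1.06 ± 0.40), a pair of nuclear receptors. Median-of-ratios scaling gave 4 higher and 14 lower, and quantile normalization 4 higher and 15 lower.

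Markers of several tissues differed in level between stages 20 and 35. The summed TPM of 7 hepatocyte-like marker models, which represent 4 of 11 genes listed, lay between 906 and 2719 at stage 35, against 16.5 and 16.9 at stage 20, and ttr made up nearly all of it. At stage 30 ttr.L had 1.64 TPM in Taira and 0.44 in Ueno, against 2.15 and 0.99 at stage 20. ttr.S had 6.43 and 5.14 at stage 30, against 6.24 and 6.62. The tyrosine catabolism gene fah.L was at 33.7, 30.1 and 31.0 TPM at stage 35, against 8.07 and 9.24 at stage 20. In the libraries of stages 20, 30, 35 and 40 used here the urea cycle gene cps1.L was at or below 0.15 TPM, tat.L at or below 1.38 and tat.S at or below 4.12, and fah.Sp was listed at 0. Intestine-like markers (9 models, 5 of 8 genes) lay between 98.0 and 351 at stage 35, against 306 and 328 at stage 20, with fabp2.L at 223, 71.3 and 47.3 at stage 35, against 0 in both stage 20 libraries, while cdx2.L was at 11.1, 4.41 and 10.5, against 119 and 132. Macrophage-like markers (8 models, 4 of 7 genes) lay between 39.6 and 83.7 at stage 35, against 40.3 and 73.7 at stage 20. Members of this list moved in opposite directions. spib.L was at 11.6, 3.41 and 5.17 at stage 35, against 48.7 and 26.1 at stage 20. mmp7.L was at 55.0, 34.6 and 33.0, against 5.46 and 1.76. Erythroid-like markers (9 models, 5 of 7 genes) lay between 105 and 131, against 4.68 and 4.98. The part of each tissue in the levels of the apolipoprotein and fibrinogen genes was not tested.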

How the data were processed

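For each of 28 polyA RNA libraries the deposited values are TPM, 1 per gene model, scaled by the authors to nearly the same total in every column. The tools named are RSEM 1.2.19 and BWA 0.7.10, per the submitters' processing notes, and the submitters' description label names JGIv18pV2 cDNA models. Their settings are not given in the sources used here, and the depth per sample is unknown.

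From these values, log2(TPM + 1) of models with TPM of at least 1 in at least 2 of 23 libraries (28223 of 45831 models) was modelled in limma 3.58.1 (R 4.3.3), with stage and collection as terms (eBayes with trend, 10 residual degrees of freedom). Tests were two-sided, with Benjamini-Hochberg adjustment over all models within each of 8 contrasts and calls at an adjusted p under 0.05. The ratio of L to S was fitted alike in 6654 pairs where L plus S reached 2 TPM in 2 or more libraries. Nothing says whether libraries of a stage hold separate embryos beyond their collection, so p-values measure the spread between these libraries. That spread is pooled over all stages. Collection was kept as a block because the labels give each library a clutch. Differences between Taira and Ueno at 2 stages correlated across models with a median r of 0.417 over 45 stage pairs (0.170 to 0.879). The methods were tested on simulated data in which each model had the same spread at every stage. Those data did not cover a spread or a collection difference that changes between stages.

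All models of the set were named. Each further list names up to 4 called models with the largest change from stage 20 to stage 35, and like genes are the 3 with the largest r. One model that this rule names is not reported here. The members and lists were chosen with earlier results of these data known. Alternatives were quantile normalization, median-of-ratios scaling, a filter at 5 TPM or none, a pseudocount of 0.1 or 5, other blocks, no trend, the second Ueno collection left out, the library labelled stage 40 Ueno put back, and each library left out in turn. Figures were drawn with matplotlib 3.10.9.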

Additional observations from a re-analysis of the deposited data

How the results depend on the processing

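Directions did not reverse in any called difference of a single model or pair under the alternatives run, and from stage 20 to stage 35 the count stayed between 8 and 12 models higher. Putting back the library labelled stage 40 Ueno ended all calls from stage 12 to 20, 25 to 30, 30 to 35 and 35 to 40 and in Taira against Ueno (0 higher in each). A pseudocount of 5 gave 0 higher from stage 12 to 20, 1 from 25 to 30 and 5 from 35 to 40. A pseudocount of 0.1 gave 1 lower from egg to stage 9, 0 higher from stage 35 to 40 and 1 higher in Taira against Ueno. Without a filter 1 was higher from stage 12 to 20 and 1 in Taira against Ueno, and with the filter at 5 TPM 0 from stage 35 to 40. Median-of-ratios scaling gave 6 higher from stage 25 to 30, 4 from 35 to 40 and 1 in Taira against Ueno. Quantile normalization gave 1 lower from egg to stage 9, 1 higher from stage 20 to 25, 5 from 25 to 30 and 1 in Taira against Ueno. Without the replicate block 1 was higher from stage 12 to 20, and without the second Ueno collection 1 from stage 35 to 40. The causes were not tested.

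With each library left out in turn, the models called higher numbered 1 to 3 from stage 12 to 20, 1 to 4 from 25 to 30, 6 to 10 from 30 to 35, 1 to 7 from 35 to 40, 10 to 11 from 20 to 35 and 1 to 2 in Taira against Ueno. The 7 came without stage 35 Taira. Models differing among stages numbered 10 to 11. Each of these fits gave 2 pairs with L higher, 4 with S higher and 6 whose ratio differed among stages, and 0 models called lower in any contrast. The scalings were not applied to the ratio of L to S. Without stage 40 Taira the stage 40 difference and the late mean of the ratio have no value.

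Onset depended on the threshold. At 5 TPM it was stage 25 for apoa1.L and apoe.S, 30 for apoe.L, 35 for fga.S, 40 for apob.L and fgb.L, and none for fga.L. At 0.5 TPM it was stage 10.5 for apoe.S, 30 for fgb.S and fgg.S and 35 for apob.S and fgg.L. With the library labelled stage 40 Ueno no model has an onset. That follows from the onset rule, since the highest value of the set in that library was 0.22 TPM. TPM without counts limits all statements on low values.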
